A study of Mus musculus with 2 samples.

Results

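CC chemokines are small secreted proteins that steer leukocytes by binding G protein-coupled receptors on them. Those described here are 7 ligands that are known in mice for drawing in monocytes, macrophages and eosinophils, Ccl2, Ccl7, Ccl8, Ccl11, Ccl24, Ccl6 and Ccl9, and 2 receptors, Ccr2 and Ccr1. Members were the rows of the count matrix that carry one of these 9 symbols, out of 32285 genes, and all 9 were present. CCR2, the receptor for CCL2 and CCL7, carries inflammatory monocytes out of the bone marrow and into injured tissue. The eotaxins CCL11 and CCL24 act through CCR3 on eosinophils, and CCL6 and CCL9, ligands known from rodents, act through CCR1 on monocytes, macrophages and neutrophils. In the healthy gut such signals renew the macrophages of the bowel wall from blood monocytes, and in the fat along the bowel they feed the macrophage pool as well.

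The study set a colotomy, an incision into the large bowel, against a sham operation in mice labelled B6/C57 and aged 8 to 12 weeks. Cells were collected on postoperative day 14. There was 1 single-cell library per operation, each a pool of digested bowel and of mesenteric adipose tissue, the fat in the fold that holds the bowel, in which the tissues carried different hashtag antibodies. The labels do not say how many animals entered a pool. With 1 library per operation there is no replicate, so no test was possible, and each interval given here is an exact 95% interval that covers counting error only.

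After filtering, 9246 cells of the colotomy library and 42143 cells of the sham library remained, with 8728608 and 70442705 UMIs (unique molecular identifiers, each standing for 1 captured transcript). The median cell had 778.5 UMIs in the colotomy library and 1328 UMIs in the sham library. T and B cell-like cells were 3.90% of colotomy cells and 51.5% of sham cells, fibroblast-like cells 38.9% and 12.4%, macrophage-like cells 6.59% and 4.40%, and neutrophil-like cells 6.45% and 0.278%. The libraries shared 108 barcode sequences among the kept cells. Xist, which is transcribed from the inactive X chromosome of females, was at 394 CPM (the UMIs of a gene per 1000000 UMIs of the class) in the colotomy library and 0.724 CPM in the sham library, and 4 Y-linked genes summed to 156 CPM and 210.1 CPM, so sex and operation cannot be told apart. The hashtag signal did not separate bowel from fat in either library (the components of a mixture lay 0.597 pooled SDs apart in the colotomy library and 0.0061 in the sham library), and no level is given by tissue.

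Cell classes were named from marker lists that hold no member. No gene with a chemokine or chemokine receptor symbol (Ccl, Cxcl, Ccr, Cxcr and the like) was used in clustering. Pf4, a chemokine gene with another kind of symbol, was not left out by this rule. Macrophage-like cells were a cluster led by C1qa, Pf4 and C1qc, with 285 colotomy and 1789 sham cells, and a cluster led by Mmp12, Spp1 and Gpnmb, with 324 and 66 cells. The C1qa cluster made up 46.8% of macrophage-like cells in the colotomy library and 96.4% in the sham library, so different clusters hold most of this class in the libraries. Fibroblast-like cells were a cluster led by Inmt, Gdf10 and Abca8a (657 and 2731 cells), a cluster led by Cd248, Pi16 and Fbn1 (1044 and 2277 cells) and a cluster led by Ptn, Col1a1 and Col12a1 (1899 and 224 cells). The Ptn cluster was 52.8% of fibroblast-like cells in the colotomy library and 4.28% in the sham library. A cluster led by Lyz1, Retnla and Ear2 (516 and 2462 cells) met 7 of 13 dendritic cell markers and 6 of 16 monocyte markers, and was left unnamed. A cluster led by the goblet cell genes Muc2, Spink4 and Agr2 (1876 and 1557 cells) met 9 of 14 markers of the general epithelial list and 7 of 11 goblet cell markers. It was left unnamed because none of its 10 leading genes was on the epithelial list, which it met best, while 4 were on the goblet cell list.

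Of the member genes, 6 lie on mouse chromosome 11 (GENCODE M21, mm10). Ccl2 (ENSMUSG00000035385, 82035571-82037453), Ccl7 (ENSMUSG00000035373, 82045712-82047525), Ccl11 (ENSMUSG00000020676, 82057823-82062955) and Ccl8 (ENSMUSG00000009185, 82115185-82116799) follow one another on the plus strand within 81.2 kb, together with Ccl12. Ccl9 (ENSMUSG00000019122, 83572919-83578636) and Ccl6 (ENSMUSG00000018927, 83587882-83593087) lie next to each other on the minus strand within 20.2 kb. Ccl24 is on chromosome 5 (ENSMUSG00000004814, 135569937-135573049, minus strand), and Ccr1 (ENSMUSG00000025804, 123962124-123968692, minus strand) and Ccr2 (ENSMUSG00000049103, 124101950-124113557, plus strand) are on chromosome 9. Ccl2 is overlapped on the other strand by Gm17268 and Ccl6 by E230016K23Rik. Whether counting used strand, and so told reads of such a pair apart, is not given in the sources used here.

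The 250 bases before the start are shown for Ccl6 and Ccl9, the neighbours whose levels were most alike among all pairs of members, and for Ccl8, the member with the largest share of its UMIs in macrophage-like cells. The sequences are RefSeq's (GRCm38.p6, 5′ to 3′ in the direction of the gene), at chr11:83593088-83593337 on the minus strand for Ccl6, chr11:83578637-83578886 on the minus strand for Ccl9 and chr11:82114935-82115184 on the plus strand for Ccl8, and capitals mark a match to 1 of 5 motifs searched on both strands.
Ccl6: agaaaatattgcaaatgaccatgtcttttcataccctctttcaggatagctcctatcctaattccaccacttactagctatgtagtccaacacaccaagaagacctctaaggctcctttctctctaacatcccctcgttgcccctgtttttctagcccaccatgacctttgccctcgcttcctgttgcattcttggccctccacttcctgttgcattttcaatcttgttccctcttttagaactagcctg
Ccl9: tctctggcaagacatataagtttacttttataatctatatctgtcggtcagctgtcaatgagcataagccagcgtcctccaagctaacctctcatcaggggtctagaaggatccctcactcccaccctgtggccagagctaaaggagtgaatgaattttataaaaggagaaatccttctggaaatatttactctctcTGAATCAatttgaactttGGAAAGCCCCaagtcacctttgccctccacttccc
Ccl8: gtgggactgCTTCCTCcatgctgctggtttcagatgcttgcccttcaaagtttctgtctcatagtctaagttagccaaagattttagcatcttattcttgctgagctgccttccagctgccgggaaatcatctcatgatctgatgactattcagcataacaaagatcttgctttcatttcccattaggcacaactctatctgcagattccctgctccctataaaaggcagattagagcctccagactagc
The motifs were the kappaB type (GGG, any 5 bases, then CC), the C/EBP type (TTGNNCAA), the AP-1 type (TGANTCA), the PU.1 type (GAGGAAG) and the STAT6 type (TTC, any 4 bases, then GAA). Ccl9 holds the AP-1 letters 53 bases before its start and the kappaB letters 35 bases before it on the other strand, and these matches do not overlap. The kappaB letters are found in 45.8% of 32851 windows of this length and the AP-1 letters in 6.75%. Ccl8 holds the PU.1 letters on the other strand, 241 bases before its start, as do 10.6% of windows. None of the 5 motifs was found in the Ccl6 window, and the C/EBP and STAT6 letters, present in 5.65% and 5.85% of windows, were found in none of these 3. A match is a description of letters and not of binding.

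**Figure D1:**
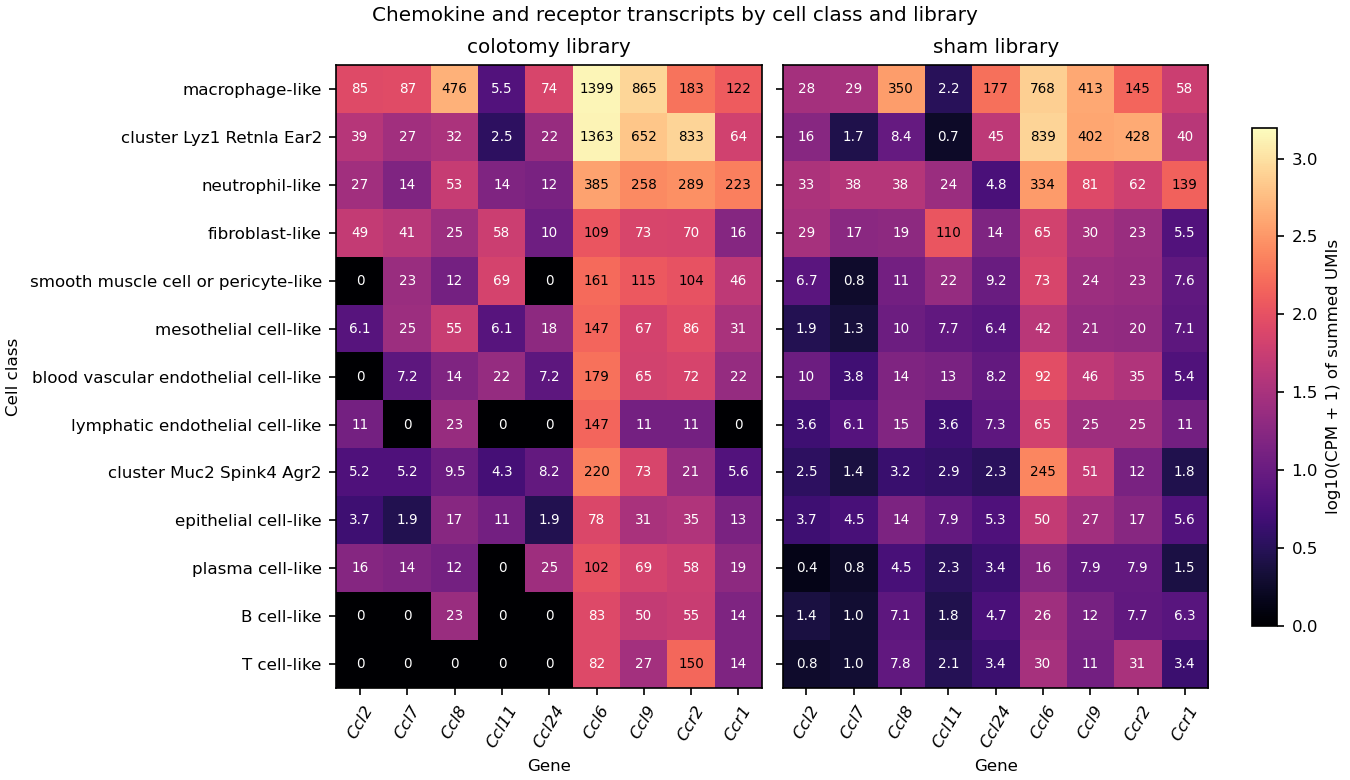
Level of each gene (columns) in each cell class (rows), as log10(CPM + 1) of summed UMIs in color with the CPM printed in the cell, colotomy library on the left and sham library on the right. Ccl8 is high in macrophage-like cells of both libraries (476 and 349.9 CPM), Ccl11 in fibroblast-like cells (57.9 and 109.9 CPM) and Ccr2 in the Lyz1 Retnla Ear2 cluster (833 and 428 CPM).

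Summed over all cells, Ccl2 was at 28.4 CPM in the colotomy library and 8.33 CPM in the sham library (ratio 3.41, 2.93 to 3.96), Ccl7 at 24.6 and 5.27 CPM (4.68), Ccr1 at 35.6 and 10.7 CPM (3.34) and Ccl9 at 158 and 70.4 CPM (2.24). Ccr2 was at 111 and 56.0 CPM (1.98), Ccl6 at 295 and 155 CPM (1.90) and Ccl8 at 49.8 and 27.0 CPM (1.84). The eotaxins differed least, with Ccl11 at 24.5 and 17.8 CPM (1.38) and Ccl24 at 13.9 and 17.5 CPM (0.79, 0.65 to 0.95). Thus 7 of 9 members were at least 1.5-fold higher in the colotomy library and none was that much lower, where 32.6% of 17968 genes were higher and 17.3% lower. The libraries differ in the cells they hold, so each gene is described by class from here on.

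Every class also takes up free RNA, and T and B cell-like cells give a measure of it for genes they should lack. In these cells together, Ccl6 was at 82.3 CPM in the colotomy library and 27.4 CPM in the sham library, Ccl9 at 44.6 and 11.5 CPM, Ccr1 at 13.7 and 5.26 CPM and Ccl8 at 17.2 and 7.33 CPM, on 361 and 21722 cells with medians of 667 and 1120 UMIs. Ccl2, Ccl7, Ccl11 and Ccl24 had no UMI there in the colotomy library, which allows up to 10.3 CPM, and 1.19, 1.02, 1.90 and 4.24 CPM in the sham library. Ccr2, which some T cells make, was at 78.9 and 16.3 CPM. The level of Ccl6 and Ccl9 in cells not known to make them was thus higher in the colotomy library, with ratios of 3.0 (1.91 to 4.50) and 3.86 (2.04 to 6.70).

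Ccl2 and Ccl7, the main ligands of CCR2, were found above all in macrophage-like and fibroblast-like cells. Fibroblast-like cells held the most UMIs of both, with 58.9% of Ccl2 UMIs in the colotomy library and 46.2% in the sham library, and 56.7% and 43.4% of Ccl7 UMIs. Per UMI, macrophage-like cells came first in the colotomy library for both genes. In the sham library the Ccl2 intervals of neutrophil-like, macrophage-like and fibroblast-like cells overlapped (33.4, 28.3 and 29.4 CPM), and the neutrophil-like value rests on 7 UMIs.

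In macrophage-like cells, Ccl2 was at 84.8 CPM in the colotomy library and 28.3 CPM in the sham library, a ratio of 3.0 (2.07 to 4.29). Ccl7 was at 86.6 CPM and 29.4 CPM, a ratio of 2.95 (2.05 to 4.19). The difference lay in the C1qa cluster, where Ccl2 was at 174 CPM (38 UMIs in 23 cells) and 23.0 CPM (79 UMIs in 63 cells), and Ccl7 at 174 and 29.1 CPM. These ratios were 7.58 (5.01 to 11.3) and 5.99 (4.01 to 8.78). Without the highest cell of each library the Ccl2 levels of this cluster were 137 and 21.8 CPM. At equal depth the class shares with Ccl2 were 4.79% (2.09 to 9.22) and 2.12% (1.45 to 2.97), which overlap. Those with Ccl7, 4.79% (2.09 to 9.22) and 2.84% (2.07 to 3.81), overlap too. In the C1qa cluster alone the shares were 11.4% of 44 and 2.06% of 1454 cells for Ccl2, and 13.6% and 2.82% for Ccl7. In the Mmp12 cluster the order was the other way for Ccl2, at 24.7 CPM (8 UMIs) in the colotomy library and 140.1 CPM (23 UMIs) in the sham library. Those 23 sham UMIs came from 4 cells and 11 of them from 1 cell, without which the sham level was 73.1 CPM (18.5 CPM in the colotomy library without its highest cell). Ccl12, the neighbouring CCR2 ligand of mice, was at 192 and 25.6 CPM in the C1qa cluster (7.52, 5.08 to 11), close to the ratio of Ccl2.

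In fibroblast-like cells, Ccl2 was at 49.2 and 29.4 CPM (1.67, 1.36 to 2.05) and Ccl7 at 41.1 and 17.5 CPM (2.35, 1.84 to 2.99), both well above the level in T and B cell-like cells. Among Xist-negative fibroblast-like cells that have a Y-linked UMI (406 colotomy and 1475 sham cells), the log2 ratio of Ccl7 was 0.30, against 1.23 in all fibroblast-like cells, and that of Ccl2 was 1.06, against 0.74. The clusters differed among themselves. In the Ptn cluster Ccl2 was at 51.4 CPM (85 UMIs) in the colotomy library and 8.78 CPM (4 UMIs) in the sham library, a ratio of 5.85 (2.20 to 22.0), and in the Inmt cluster it was at 33.4 and 14.8 CPM (2.26, 1.24 to 3.89). In the Cd248 cluster, where the sham level was highest, it was at 54.5 and 46.7 CPM (1.17, 0.82 to 1.62), a difference within counting error. Ccl7 was at 49.0 and 19.8 CPM in the Ptn cluster (2.48), 44.6 and 28.1 CPM in the Cd248 cluster (1.58, 1.06 to 2.32) and 9.83 and 6.95 CPM in the Inmt cluster (1.41, 0.43 to 3.67).

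Ccl2 and Ccl7 were often found in the same cells. Of fibroblast-like cells with a Ccl2 UMI, 19.6% of 92 in the colotomy library and 39.1% of 110 in the sham library also had a Ccl7 UMI, against 2.37% and 1.60% of those without Ccl2. Among macrophage-like cells the shares were 36.7% of 30 and 25.4% of 67, against 4.49% and 3.36%. Cells with Ccl2 were deeper (medians of 907.5 and 1997.5 UMIs in fibroblast-like cells, against 716 and 1535 without it), and the part of depth in these shares was not tested.

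**Figure D2:**
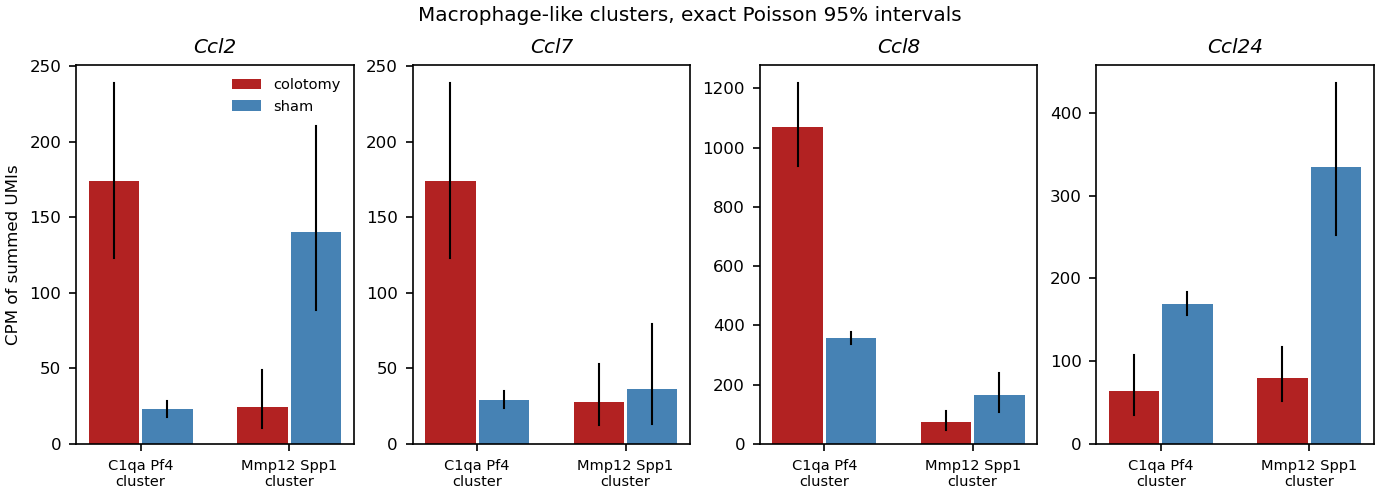
Level of 4 ligands (CPM of summed UMIs) in both macrophage-like clusters, colotomy bars left of sham bars, with exact Poisson 95% intervals. Ccl2, Ccl7 and Ccl8 were higher in the colotomy library in the C1qa Pf4 cluster (174, 174 and 1071 CPM, against 23.0, 29.1 and 359 CPM), and Ccl24 was lower in both clusters.

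Ccl8, which in mice acts on CCR8 of type 2 helper T cells, was above all a macrophage-like transcript, with 59.3% of its UMIs in that class in the colotomy library and 66.2% in the sham library. Its level there was 476 and 349.9 CPM (1.36, 1.18 to 1.56), while the next class of at least 50 cells reached 55.2 CPM (mesothelial cell-like, colotomy library) and 38.2 CPM (neutrophil-like, sham library). Within the C1qa cluster Ccl8 was at 1071 CPM in the colotomy library and 359 CPM in the sham library (2.98, 2.58 to 3.44). There a Ccl8 UMI was found in 27.0% and 20.9% of cells, and at 1000 UMIs per cell in 25% of 44 and 16.4% of 1454 cells. In the Mmp12 cluster it was at 74.1 and 164 CPM (0.45, 0.25 to 0.81), and 14 of the 27 sham UMIs came from 1 cell. The Mmp12 cluster is the larger macrophage-like cluster of the colotomy library and the smaller one of the sham library, and it is the one with less Ccl8. Transcripts were unevenly spread, with up to 54 UMIs in 1 cell of the colotomy library and 58 in 1 cell of the sham library. Without the highest cell of each library the C1qa cluster levels were 824 and 342 CPM. Over the whole class the share at equal depth was 9.58% and 15.9%, which goes against the order of the CPM, and no order is read from it. In fibroblast-like cells Ccl8 was at 24.6 and 18.9 CPM (1.30, 0.98 to 1.72), against 17.2 and 7.33 CPM in T and B cell-like cells. With those levels subtracted the log2 ratio was -0.64, against 0.38. The colotomy level subtracted rests on 5 UMIs (interval 5.57 to 40.0 CPM), which reaches above the fibroblast-like level, so no direction is read from it.

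Ccl11, eotaxin, was a fibroblast-like transcript, with 80.4% of its UMIs in that class in the colotomy library and 80.7% in the sham library. Its level in fibroblast-like cells was 57.9 CPM (172 UMIs) in the colotomy library and 109.9 CPM (1013 UMIs) in the sham library, a ratio of 0.53 (0.45 to 0.62). A Ccl11 UMI was found in 4.28% and 15.2% of these cells, and after thinning each cell to 1000 UMIs (736 and 4291 cells deep enough) in 4.08% (2.77 to 5.77) and 9.58% (8.71 to 10.5). Within the clusters the ratios were nearer to 1. The Cd248 cluster had 110.2 and 156 CPM (0.71, 0.56 to 0.89), the Inmt cluster 66.8 and 73.3 CPM (0.91, 0.62 to 1.30) and the Ptn cluster 29.6 and 37.3 CPM (0.79, 0.45 to 1.47). In both libraries Ccl11 was highest in the Cd248 cluster and lowest in the Ptn cluster, the cluster with most of the colotomy fibroblast-like cells. A further cluster, led by Adamdec1, Bmp4 and Tnc, had 68.6 CPM in its 398 sham cells, and 3 UMIs in its 33 colotomy cells. Smooth muscle cell or pericyte-like cells had 69.1 CPM (6 UMIs) and 21.8 CPM (26 UMIs), and in the colotomy library this value and that of fibroblast-like cells overlapped in their intervals. Ccl11 was thus lower in the colotomy library within the class and higher over all cells (1.38), in a library with 38.9% fibroblast-like cells, against 12.4% in the sham library.

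**Figure D3:**
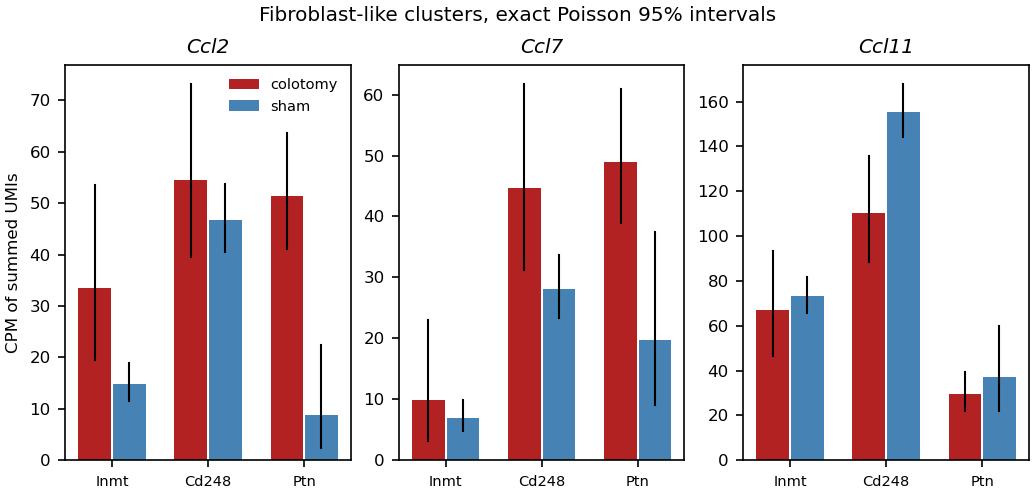
Level of Ccl2, Ccl7 and Ccl11 (CPM of summed UMIs) in the fibroblast-like clusters led by Inmt, Cd248 and Ptn, colotomy bars left of sham bars, with exact Poisson 95% intervals. Ccl2 in the Ptn cluster was at 51.4 CPM in the colotomy library and 8.78 CPM in the sham library, and Ccl11 was highest in the Cd248 cluster of both libraries.

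Ccl24, the second eotaxin, was highest in macrophage-like cells of both libraries and lower in the colotomy library. It was at 73.7 CPM (40 UMIs in 609 cells) in the colotomy library and 176.6 CPM (637 UMIs in 1855 cells) in the sham library, a ratio of 0.42 (0.30 to 0.58). At 1000 UMIs per cell the share with a Ccl24 UMI was 1.80% (0.37 to 5.16) and 12.8% (11.2 to 14.6). Unlike Ccl2 and Ccl8, it had the same direction in both macrophage-like clusters, with 64.1 and 169 CPM in the C1qa cluster (0.38, 0.21 to 0.64) and 80.3 and 335 CPM in the Mmp12 cluster (0.24, 0.14 to 0.39). In the Mmp12 cluster 30 of the 55 sham UMIs came from 1 cell, and without the highest cell of each library the levels were 49.4 and 152 CPM. The Lyz1 cluster came next in the sham library, at 22.1 CPM in the colotomy library and 45.0 CPM in the sham library (0.49, 0.22 to 0.95). Plasma cell-like cells had 11 Ccl24 UMIs in the colotomy library (25.5 CPM) and 9 in the sham library (3.39 CPM).

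Eosinophils, the cells that eotaxins attract, did not form a cluster. Ccr3, the eotaxin receptor, had 2 UMIs in the colotomy library and 6 in the sham library. Cells with UMIs of at least 2 of Siglecf, Epx, Prg2, Prg3, Il5ra and Ccr3 numbered 0 of 9246 in the colotomy library, which allows a share of up to 0.0324%, and 12 of 42143 in the sham library (0.0285%, Clopper-Pearson 0.0147 to 0.0497%). These limits bear on cells with such UMIs and not on the eosinophils of the tissue.

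Ccl6 and Ccl9, the CCR1 ligands, were both highest in macrophage-like cells and the Lyz1 cluster. In macrophage-like cells Ccl6 was at 1399 CPM in the colotomy library and 768 CPM in the sham library (1.82, 1.68 to 1.98), and Ccl9 at 865 and 413 CPM (2.09, 1.88 to 2.33). In the Lyz1 cluster Ccl6 was at 1363 and 839 CPM (1.62, 1.48 to 1.77) and Ccl9 at 652 and 402 CPM (1.62, 1.42 to 1.84). For Ccl6 in the colotomy library, and for Ccl9 in the sham library, the intervals of these classes overlapped, so neither class can be put first. Macrophage-like cells led for Ccl9 in the colotomy library and the Lyz1 cluster for Ccl6 in the sham library. At equal depth 57.5% of 167 colotomy and 42.7% of 1512 sham macrophage-like cells had a Ccl6 UMI, and before thinning 48.6% and 54.2%. Of the cells deep enough, 123 colotomy and 58 sham cells were of the Mmp12 cluster, where the shares were 65.0% and 50%. In the C1qa cluster they were 36.4% (22.4 to 52.2) and 42.4% (39.8 to 45.0). No order is read from the shares of the class. Across 41 combinations of cluster and library the log2 levels of Ccl6 and Ccl9 had a Pearson r of 0.94. It was the highest of the 36 pairs of members, and the points share libraries and depth.

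The Mmp12 cluster was the richer macrophage-like cluster for both genes, with Ccl6 at 1692 and 1005 CPM (1.68, 1.41 to 2.02) and Ccl9 at 1031 and 913 CPM (1.13, 0.93 to 1.38). The C1qa cluster had Ccl6 at 965 and 757 CPM (1.28, 1.10 to 1.47) and Ccl9 at 618 and 389 CPM (1.59, 1.32 to 1.90). At a finer resolution the Lyz1 cluster gave most of the cells of several smaller clusters. One led by Lyz1, Retnla and Ear2 (157 and 777 cells, 97.4% of them from the Lyz1 cluster) had Ccl6 at 2423 and 1863 CPM. One led by Cd209a, Il1b and S100a4 (419 and 850 cells, 80.9%), dendritic cell-like by its markers, had 948 and 451 CPM. One led by Cst3, Ppt1 and Naaa (80 and 666 cells, 94.8%), also dendritic cell-like, had 73.1 and 71.0 CPM. Within what was 1 cluster at the coarser resolution, Ccl6 thus lay far lower in the Cst3 cells than in the others, in both libraries.

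Ccl6 was also found in the goblet-gene cluster, at 220.1 CPM in the colotomy library and 245 CPM in the sham library (0.90, 0.81 to 0.99). At equal depth 15.2% (13 to 17.7) and 14.7% (12.9 to 16.7) of its cells had a Ccl6 UMI, against 7.46% (2.47 to 16.6) and 2.66% (2.39 to 2.95) of T and B cell-like cells. For each 100 UMIs of Lyz2, a macrophage and monocyte lysozyme gene, the cluster held 147 Ccl6 UMIs in the colotomy library and 375 in the sham library, whereas T and B cell-like cells held 35.8 and 45.8, macrophage-like cells 17.7 and 31.4 and other epithelial cell-like cells 22.3 and 34.7. The part of free RNA in these values was not tested. The transcript lay with the goblet genes inside the cluster. At the finer resolution the goblet cell-like cluster led by Spink4, Muc2 and Retnlb (870 and 705 cells) had 329 and 399.7 CPM, and the epithelial cell-like cluster led by Clca3b, Slc12a2 and Dmbt1 (935 and 551 cells) had 81.6 and 25.2 CPM. In the sham library the goblet-gene cluster held 12.5% of all Ccl6 UMIs, and in the colotomy library 19.9%.

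**Figure D4:**
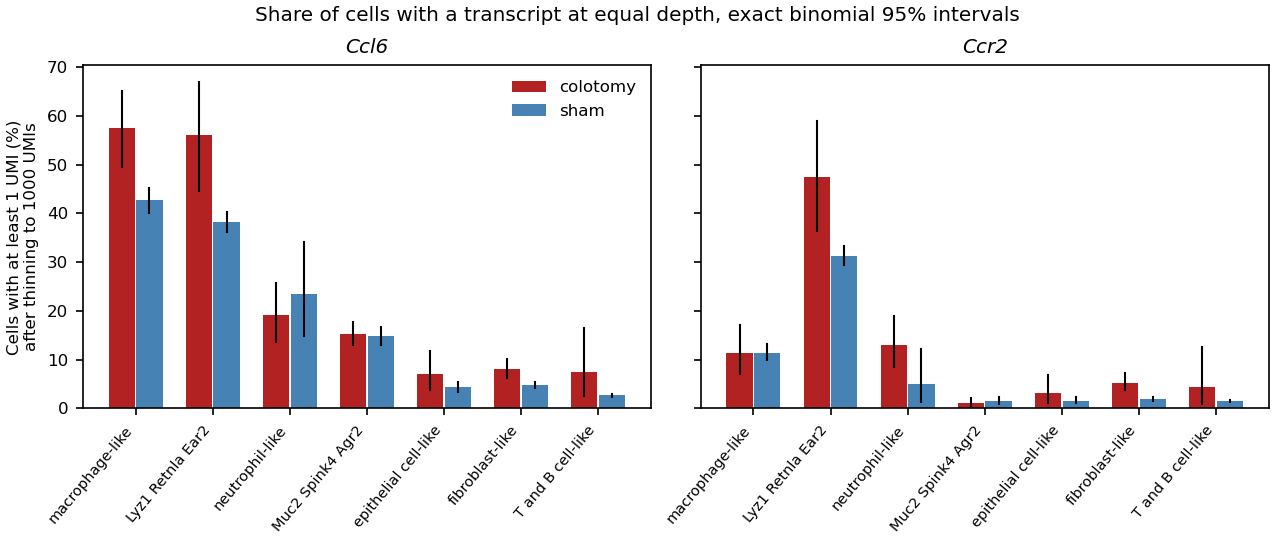
Share of cells (%) with at least 1 UMI of Ccl6 or Ccr2 after thinning each cell to 1000 UMIs, by class, colotomy bars left of sham bars, with exact binomial 95% intervals. The Muc2 Spink4 Agr2 cluster had 15.2% and 14.7% of cells with Ccl6, where T and B cell-like cells had 7.46% and 2.66%, with intervals that overlap in the colotomy library, and Ccr2 was most frequent in the Lyz1 Retnla Ear2 cluster (47.6% and 31.4%). The Ccr2 shares of that cluster rest on the 82 of 516 colotomy cells and 2216 of 2462 sham cells that were deep enough.

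In fibroblast-like cells Ccl6 was at 109 and 65.1 CPM and Ccl9 at 73.1 and 30.4 CPM, within 3 times the T and B cell-like levels of the same library. Fibroblast-like cells held 29.9 and 39.6 Ccl6 UMIs for each 100 of Lyz2, close to T and B cell-like cells. With the T and B cell-like CPM of the same library subtracted, Ccl6 turned to lower in the colotomy library (log2 ratio -0.51). Ccr2, at 70.0 CPM in colotomy fibroblast-like cells, was below the 78.9 CPM of the T and B cell-like cells of that library. Since some T cells make Ccr2, that level is not a measure of free RNA alone. Ccr1 was at 16.2 and 5.53 CPM in fibroblast-like cells, close to the 13.7 CPM (4 UMIs) and 5.26 CPM of T and B cell-like cells. The summed level of 16 macrophage markers in fibroblast-like cells was 644 and 341 CPM, with none of the 16 at 0. Ccl6 (1.67), Ccl9 (2.40), Ccr2 (3.04) and Ccr1 (2.92) were higher there in the colotomy library together with these markers, and the part of the markers in that was not tested.

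Ccr2 was highest in the Lyz1 cluster of both libraries, with 833 CPM in the colotomy library and 428 CPM in the sham library (1.95, 1.73 to 2.18). At equal depth 47.6% (36.4 to 58.9) of 82 cells and 31.4% (29.4 to 33.3) of 2216 cells had a Ccr2 UMI. The cluster held 35.2% of Ccr2 UMIs in the colotomy library and 57.9% in the sham library. All 3 of the finer clusters named above carried the receptor, at 974 and 437 CPM in the Cd209a cells, 830 and 669 CPM in the finer Lyz1 cells and 453 and 169 CPM in the Cst3 cells. Macrophage-like cells had 183 and 145 CPM (1.26, 1.00 to 1.56), which turned to a log2 ratio of -0.31 with the T and B cell-like CPM subtracted. Some T cells make Ccr2, and T cell-like cells of the colotomy library had 150 CPM (11 UMIs). The subtraction can thus take off more than free RNA, and no direction is read from it. Macrophage-like cells had 334 and 150.5 CPM in the C1qa cluster (2.22, 1.71 to 2.84) and 80.3 and 30.5 CPM in the Mmp12 cluster (2.64, 1.00 to 8.79). The Mmp12 value in the colotomy library was close to that of T and B cell-like cells, 78.9 CPM.

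Ccr1 had its highest level in neutrophil-like cells, with 223 CPM (125 UMIs) in the colotomy library and 139 CPM (29 UMIs) in the sham library (1.61, 1.07 to 2.5). At equal depth the shares of cells with a UMI were 17.5% (12.2 to 23.9) and 16% (8.83 to 25.9), which overlap. Macrophage-like cells came next, at 122 and 58.5 CPM (2.08, 1.55 to 2.75), and then the Lyz1 cluster, at 63.7 and 40.5 CPM (1.58, 1.01 to 2.37). In the Mmp12 cluster Ccr1 was at 105 CPM (34 UMIs) and 18.3 CPM (3 UMIs), a ratio of 5.75 (1.81 to 29.2). The Cd209a cells had 166 and 35.9 CPM, while the finer Lyz1 cells had 44.5 and 77.6 CPM.

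Neutrophil-like cells also had Ccr2 at 289 and 62.1 CPM (4.65, 2.64 to 8.92) and Ccl9 at 258 and 81.2 CPM (3.18, 1.92 to 5.61), with Ccl6 at 385 and 334 CPM (1.15, 0.88 to 1.53). Markers of other cells were high in this class, 14 fibroblast markers summing to 13844 CPM in the colotomy library and 3787 CPM in the sham library, and 16 macrophage markers to 1655 and 831 CPM, with 0 and 1 of the 16 at 0. Their part in these values was not tested.

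**Figure D5:**
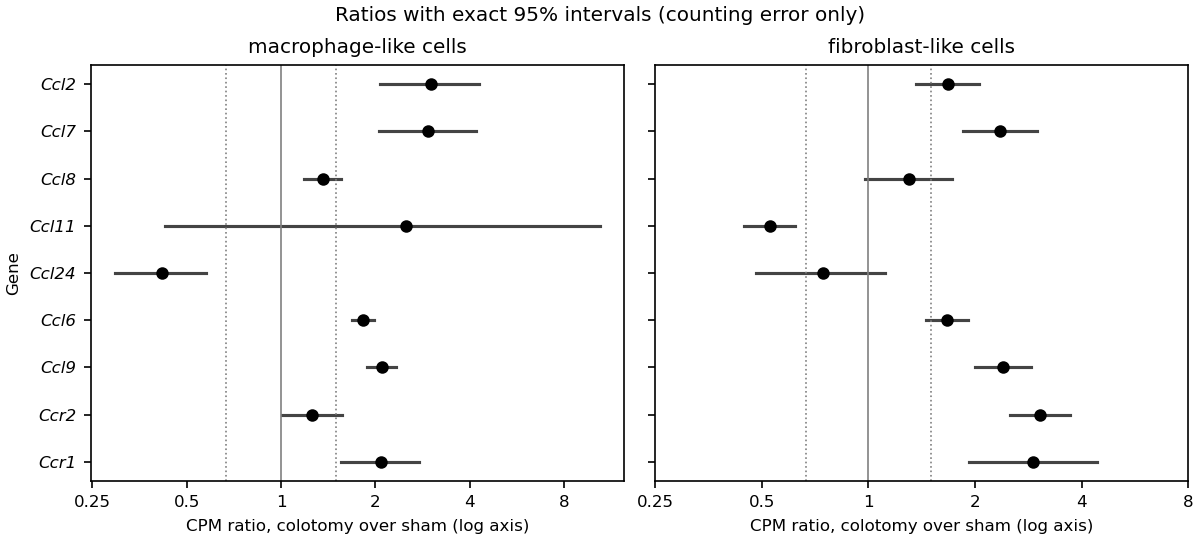
Ratio of CPM, colotomy over sham, for the 9 genes in macrophage-like cells (left) and fibroblast-like cells (right) on a log axis, with exact 95% intervals and dotted lines at 1.5-fold in either direction. Ccl24 was lower in macrophage-like cells (0.42) and Ccl11 in fibroblast-like cells (0.53). The intervals of Ccl2, Ccl7, Ccl6, Ccl9, Ccr2 and Ccr1 lay above 1 in both classes, that of Ccr2 in macrophage-like cells only just (from 1.005). In fibroblast-like cells Ccr1 lay close to the T and B cell-like level of both libraries.

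Counted over the set, 6 of 9 members were at least 1.5-fold higher in the colotomy library in macrophage-like cells (Ccl2, Ccl7, Ccl11, Ccl6, Ccl9 and Ccr1) and 1 was at least 1.5-fold lower (Ccl24), where 19.8% of 11778 genes were higher and 26.6% lower. The Ccl11 ratio, 2.49 (0.43 to 10.4), rests on 3 colotomy and 8 sham UMIs. The median log2 ratio was 1.06 over the members and -0.07 over all genes. Macrophage-like cells of the colotomy library also held more fibroblast transcripts, 4331 CPM over 14 markers against 503 CPM in the sham library, none at 0, and the part of these in the members' values was not tested. In the C1qa cluster alone 6 of 8 measured members were higher and 1 lower, beside 20.5% and 20.4% of genes, and in the Mmp12 cluster 3 of 8 were higher (Ccl6, Ccr2, Ccr1) and 3 lower (Ccl2, Ccl8, Ccl24), beside 25.4% and 20.4%.

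In fibroblast-like cells 6 of 9 members were higher (Ccl2, Ccl7, Ccl6, Ccl9, Ccr2 and Ccr1) and 1 lower (Ccl11), where 17.4% of 14410 genes were higher and 18.9% lower. Of the higher members, Ccr1 lay close to the T and B cell-like level in both libraries, and Ccr2 below that level in the colotomy library. At 2-fold no member was lower, where 9.15% of genes were. The median log2 ratio was 0.74 over the members and -0.03 over all genes. By cluster, 5 of 9 members were higher and 1 lower in the Inmt cluster, beside 17% and 20.6% of genes. In the Cd248 cluster 6 were higher and none lower, beside 15.4% and 19.9%, and in the Ptn cluster 5 were higher and 1 lower, beside 18.9% and 17.5%. In the Lyz1 cluster 7 of 8 measured members were higher and 1, Ccl24, lower, where 19.3% of 11983 genes were higher and 17.5% lower. Ccl7 differed most there, with 27.0 CPM (11 UMIs) and 1.69 CPM (9 UMIs), a ratio of 16 (6.03 to 43.7). Over the 11 named classes with at least 50 cells in each library, 50 of 84 member values were higher and 8 lower. Of 124679 such values of all genes, 24.8% were higher and 19.5% lower. The classes include B cell-like and T cell-like cells, in which Ccl6 and Ccl9 were higher as well. The same free RNA can thus be counted in several classes, and its part in the 50 was not tested.

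Of 14 other CC and CX3C ligands, 9 had at least 10 UMIs in macrophage-like cells, 4 of them higher and 3 lower in the colotomy library. Of all genes in this class, 19.8% were higher and 26.6% lower. Ccl3 and Ccl4, ligands that activated macrophages make, were at 129 and 17.5 CPM (7.39, 5.18 to 10.6) and at 208 and 43.5 CPM (4.79, 3.72 to 6.13). Ccl22, which draws in regulatory T cells through CCR4, had 1 colotomy UMI and 112 sham UMIs (0.059, 0.0015 to 0.34), and Ccl5, a product of T cells and NK cells, was at 36.9 and 113 CPM (0.33, 0.20 to 0.51). Of 13 other receptors and scavengers, 7 were measured, 3 higher and 2 lower, beside the same shares of all genes. Ccrl2, a non-signalling receptor that holds chemerin at the cell surface, was at 162 and 18.0 CPM (9.0, 6.46 to 12.6), and Ccr7, which leads dendritic cells and naive T cells to lymph nodes, at 27.7 and 143 CPM (0.19, 0.11 to 0.32). The sham cells hold far more lymphocyte RNA, with 18 B cell markers at 1407 CPM in the colotomy and 5765 CPM in the sham macrophage-like cells, and its part in Ccl5 and Ccr7 was not tested.

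Cytokines that are known to induce these chemokines were also read. Of 16, 7 were measured in macrophage-like cells, of which 5 were higher and 1 was lower in the colotomy library (median log2 ratio 2.58). Beside them, 19.8% of all genes were higher and 26.6% lower. Il1b was at 140.1 and 21.1 CPM (6.65, 4.77 to 9.26) and Tnf at 47.9 and 8.04 CPM (5.96, 3.37 to 10.5), both inflammatory cytokines that act through NF-kappaB. Il1b is also a leading gene of the neutrophil-like cluster. In macrophage-like cells 14 neutrophil markers summed to 505 and 199 CPM, with 3 of the 14 at 0 in both libraries. Their part in Il1b was not tested. Of 23 cytokine receptors and signalling factors, all measured, 8 were higher and 1 lower (median 0.23), beside the same shares of all genes. The transcription factor gene Cebpb was at 973 and 172 CPM (5.65, 5.03 to 6.36). Irf4, which serves alternative activation, was at 20.3 and 99.5 CPM (0.20, 0.10 to 0.37).

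In fibroblast-like cells 7 of the 16 cytokines were measured, 4 higher and 1 lower (median 0.64). Of the 23 receptors and factors, 8 were higher and 2 lower (median 0.39). Of all genes in this class, 17.4% were higher and 18.9% lower. Il33, an alarmin of stromal cells, was at 108 and 69.4 CPM (1.56, 1.36 to 1.79). Il1r1, the interleukin-1 receptor, was at 75.8 and 31.0 CPM (2.44, 2.04 to 2.92), Il13ra1, a subunit of the interleukin-13 receptor, at 55.2 and 23.2 CPM (2.38, 1.93 to 2.93) and Cebpb at 265 and 72.8 CPM (3.64, 3.28 to 4.05). Il1b, at 59.9 and 3.91 CPM (15.3, 10.7 to 22.6), is not a known fibroblast product at high level. It moved with 14 neutrophil markers, which summed to 283 and 38.4 CPM in these cells with 2 of the 14 at 0 in both libraries, and their part in it was not tested.

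The genes most like each member over the same 41 points, among 12490 genes outside the chemokine family, followed the classes above. Ccl6 and Ccl9 were most like Lyz2 (r 0.92 and 0.95), Ccl8 most like the complement genes C1qc (0.91) and C1qa (0.89), and Ccl11 most like Pcdh19 (0.92), Gpc6 (0.91) and Abca8a (0.91). Ccr2 was most like Plbd1 (0.83), Ms4a6c (0.83) and F13a1 (0.83), and Ccr1 most like Itgam (0.88), Cd33 (0.86) and Fpr2 (0.84). Ccl2, Ccl7 and Ccl24 reached lower values, with Tmem106a (0.81), Emilin2 (0.81) and Ftl1-ps1 (0.78).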

How the data were processed

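The deposited matrices hold raw UMI counts per gene and barcode for 2 libraries, made with Cell Ranger 6.0.0 per the file headers. Per the submitters' processing notes the genome was mm10 and STAR 2.5.1b, Seurat and Space Ranger were used, with no role given. The settings of cell calling are not given in the sources used here. A barcode was kept if it had 500 or more gene UMIs, 300 or more genes and a mitochondrial share below 20%.

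Both libraries were clustered jointly in scanpy 1.11.5, with no integration step, giving 24 clusters. The settings were log counts per 10000 UMIs, 2000 variable genes, 30 components, 15 neighbours and Leiden resolution 1. Genes with chemokine or chemokine receptor symbols were kept out of the variable genes. A cluster was named when at least 3 markers of 1 list were found in at least 10% of its cells at 2 or more times the CPM of other cells and no other list led its 10 leading genes, which named 18 clusters and left 6 unnamed. Scrublet called 0 doublets in either library and so has not worked, and no barcode was removed as a doublet.

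UMIs were summed by class and library and given as CPM with exact Poisson intervals, shares with Clopper-Pearson intervals and ratios with exact conditional binomial intervals, at the 95% level. The ratio function was tested on simulated data. Counts of higher and lower genes used 1.5-fold and at least 10 UMIs over both libraries. A count of 0 took a limit of 3 counts. Genes outside the 9 members were named by rule: in each list and class, up to 3 with the largest and 3 with the smallest ratio past 1.5-fold among those with at least 50 UMIs, plus Ccl12 and Ccr3, and the 3 genes most like each member. The members, lists and classes described were chosen with earlier results of these data known. CPM values scale with what else a cell contains, and the colotomy cells are shallower, so shares of cells were also taken at 1000 UMIs per cell.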

Additional observations from a re-analysis of the deposited data

Results flagged for a closer look

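Ccl2 and Ccl8 differed in opposite directions between the libraries in the macrophage-like clusters, which is why both are listed here. For Ccl2 the ratio of colotomy to sham was 7.58 in the C1qa cluster and 0.176 in the Mmp12 cluster. For Ccl8 it was 2.98 and 0.451. With 1 library per operation the difference between the clusters was not tested. The sham side of the Mmp12 cluster is 66 cells, and in it 4 cells hold all Ccl2 UMIs and 4 cells all Ccl8 UMIs.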

How the results depend on the processing

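No paired analysis was possible because the labels give no replicate numbers and each operation has 1 library, and no library could be left out. Counts of members past 1.5-fold moved by over 1.5 times in these cases. In fibroblast-like cells the 1 lower member became 2 under a floor of 1000 UMIs and 500 genes, 2 without barcodes positive for both hashtags, 2 in Xist-negative cells that have a Y-linked UMI, 3 after subtracting the T and B cell-like CPM, 0 at 2-fold and 0 within the Cd248 cluster. In macrophage-like cells the 6 higher and 1 lower became 3 and 3 within the Mmp12 cluster, a setting chosen after seeing the data, as were the other single clusters, the omission of the highest cell and that of shared barcodes. Over all classes 50 member values were higher and 8 lower. These became 26 and 4 with the stricter cell filter, 5 and 2 in the Xist-negative cells, and 4 lower at Leiden resolution 2. Fewer classes hold 50 cells under the stricter filter and in the Xist-negative cells. The counts there have other totals, so a smaller count is not read as fewer members differing. The log2 ratio of Ccl6 in fibroblast-like cells turned to -0.51 after the subtraction and to -0.15 in the Xist-negative cells. For Ccr2 the subtraction left no colotomy level, so its -2.73 is set by the limit of 3 counts and is not a measured ratio. Ccr2 is among the 3 lower members of that setting. Among ratios under 1.5-fold in fibroblast-like cells, Ccl8 turned to -0.64 after the subtraction of a colotomy level that rests on 5 UMIs, and Ccl24 to 1.08 at Leiden resolution 2. Ccl7 moved to 0.30 in the Xist-negative cells and so lost its 1.5-fold call. In macrophage-like cells it turned to -2.50 for Ccl2 and -0.39 for Ccl7 within the Mmp12 cluster. The cause was not tested. Apart from single clusters, the log2 ratio lay between -1.40 and -0.66 for Ccl11 in fibroblast-like cells, and it was -0.13, -0.50 and -0.33 within the Inmt, Cd248 and Ptn clusters. For all settings run it lay between -2.37 and -1.11 for Ccl24 in macrophage-like cells. The median gene with at least 50 UMIs lay at a log2 ratio of -0.15 in macrophage-like cells, and centring on it moves all ratios there up by that much. Such Xist-negative macrophage-like cells were under 50 in a library and gave no value. The shallow colotomy cells limit shares at 1000 UMIs to few cells, which are the deepest of their class.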
